A study of Mus musculus with 10 samples.

Results

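The comparison described here set CD8 T cells kept in low glucose for a prolonged period against cells kept in it acutely, where both had been given acetate. It was chosen by sample label and used 5 of the 10 libraries of the series, 3 from prolonged restriction with acetate (labelled d9) and 2 from acute restriction with acetate (labelled d5). All cells were CD8 T cells of OT-I mice on the C57BL/6 strain, taken from spleens and peripheral lymph nodes. OT-I is a T cell receptor transgene that recognises an ovalbumin peptide, and the labels state neither the age nor the number of mice. In every group the cells were activated with that peptide and recombinant human interleukin-2 in 25 mM glucose, and after 3 days were moved to 1 mM glucose with daily washing and replating in fresh medium with interleukin-2. Restriction lasted 24 h in the acute group and 120 h in the prolonged group. Both groups received 5 mM sodium acetate for the last 1 day, which covered the whole restriction in the acute group and only its end in the prolonged group. All cells were restimulated with PMA and ionomycin for 4 h before polyadenylated RNA was sequenced. Activation for 3 days plus 1 or 5 days of restriction does not reach day 5 or 9 as labelled, a gap that is unexplained. The other 5 libraries, 2 acute and 3 prolonged without acetate, entered the fit and gave the matching change without acetate. Cells kept in 25 mM glucose were not analysed here, so length of restriction and time in culture cannot be told apart.

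Activated CD8 T cells divide rapidly and take up much glucose, and they kill target cells by releasing perforin and granzymes from cytotoxic granules while secreting cytokines such as interferon gamma and TNF. Acetate is converted to acetyl-CoA by acetyl-CoA synthetases, in the mitochondria by Acss1 and in the cytosol and nucleus by Acss2, and acetyl-CoA feeds the tricarboxylic acid cycle, lipid synthesis and histone acetylation. PMA and ionomycin activate protein kinase C and calcium signalling directly, so restimulated cells show cytokine and immediate early gene transcripts without contact with antigen.

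The acute libraries held 17.53 and 17.97 M counts and the prolonged libraries 23.66, 22.97 and 24.66 M, so depth moved with the comparison. Prolonged replicate 2 lay apart from the other prolonged libraries with acetate on the second principal component and had 14.9% of its counts on ribosomal protein genes, against at most 11.1% in the other 2. Among the libraries without acetate, prolonged replicate 1 lay apart in the same direction. Of the acute libraries with acetate, replicate 2 had 13.8% of its counts on ribosomal protein genes and replicate 1 had 11.6%. On the second principal component these 2 lay at -32.9 and -16.4, against -26.1 for prolonged replicate 2 with acetate. Whether replicates came from different cultures or mice is not stated, so p-values measure the spread between these samples, which may be technical. Summed CPM (counts scaled to library size with TMM factors) of 8 CD8 T cell markers was 2666 and 2757 in the acute libraries and 2826, 3385 and 3106 in the prolonged ones, and each of the 8 was above 1 CPM. How counting treated strand is not stated, so reads of a gene and of a partner annotated over it on the other strand cannot be told apart; among the genes named below this holds for Acss1, Aldoa, Ccnd1, Ccne2, Cdkn1a, Cish, Csf2, Cxcl16, Dusp1, Dusp5, Eif2ak3, Eomes, Gzmf, H2-Q4, Hsp90b1, Irf7, Jun, Lrmp, Mgll, Ndrg1, Sirt1, Slc2a1, Spry1, Sqstm1, Tox, Txnip and Xcl1. Ctsd, Ifng, Itga1, Hsp90b1 and Klrb1c share their strand with another gene model.

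Prolonged and acute cells with acetate differed across a large share of the transcriptome. Of 13182 genes tested, 5480 (41.6%) passed an adjusted p of 0.05 in edgeR's quasi-likelihood test with Benjamini-Hochberg adjustment. Of these, 2436 (18.5% of the genes tested) were higher and 3044 (23.1%) lower in prolonged cells, and below "rose" and "fell" are used only for genes past this threshold. With a change of more than 2-fold also required, 950 genes (7.21%) rose and 1740 (13.2%) fell, and 335 (2.54%) and 466 (3.54%) did so by more than 4-fold. For 8240 genes (62.5%) the 3 prolonged and 2 acute libraries did not overlap, so a lack of overlap alone is common here. Scaling by library size alone moved the share of higher genes among those called from 44.5% to 33.9%, and removal of length and GC trends moved it to 52.6%. With counts thinned to the smallest library 5303 genes were called. The calls rested on 2 acute libraries, and 3106 genes were called without acute replicate 1 and 3619 without acute replicate 2. The plot of gene lists shows cell cycle lists on the lower side and granule, interferon and cytokine receptor lists on the higher side, around a median log2 fold change over all tested genes of -0.01.

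**Figure D1:**
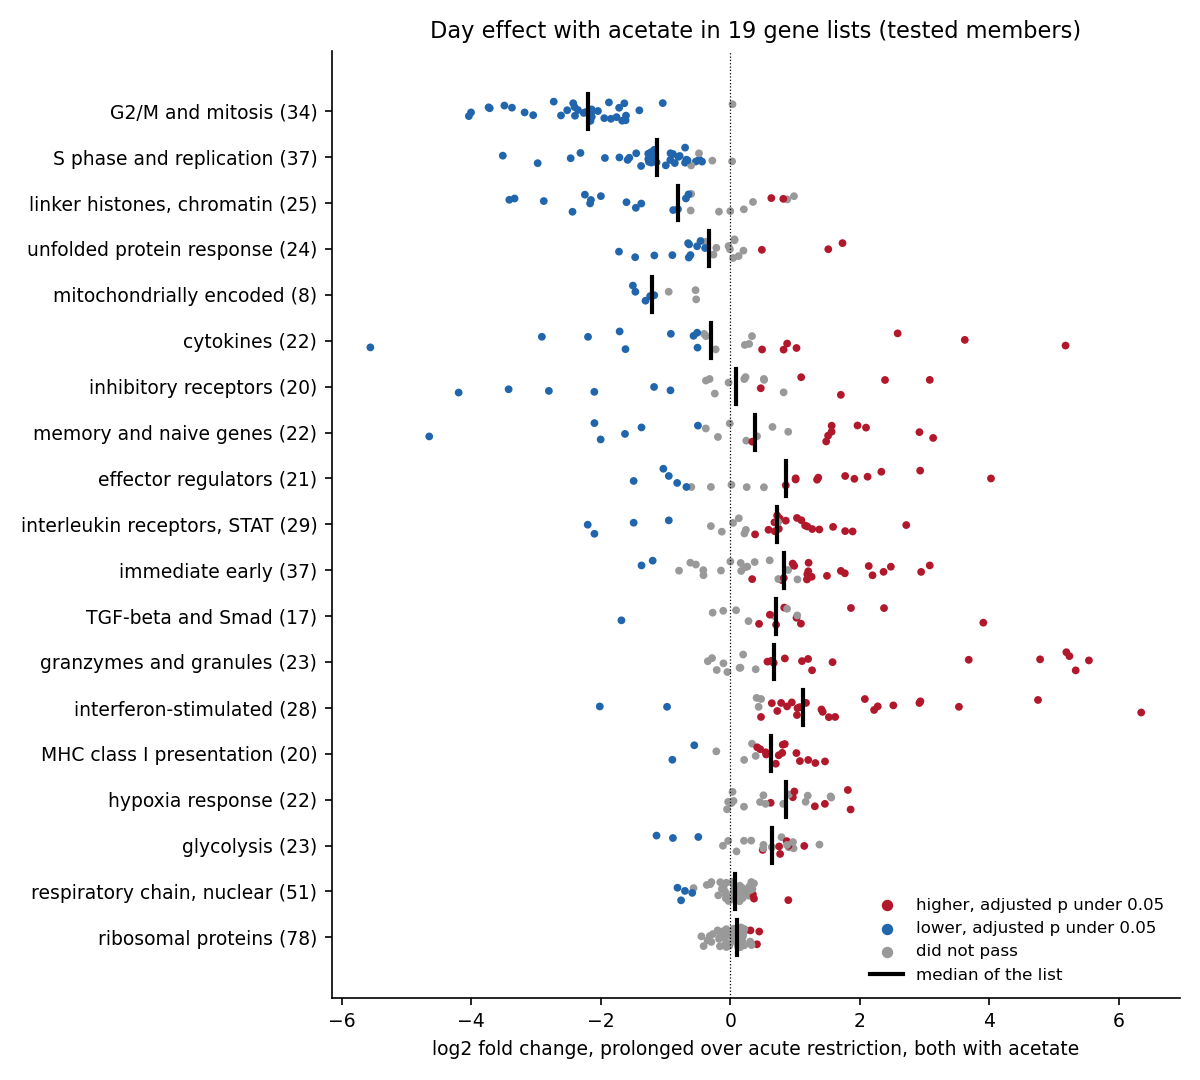
Each point is a tested gene of a list, placed by its log2 fold change of prolonged (n = 3) over acute (n = 2) restriction, both with acetate; colours mark edgeR calls, bars mark list medians and numbers in brackets give the members tested. The G2/M list lies between -4.04 and 0.03, while the interferon-stimulated list has a median of 1.12.

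Transcript base composition moved with the comparison. Genes called higher had a median transcript GC content of 53.2%, genes called lower 44.4% and the remaining genes 50.1%. The median log2 fold change ran from -0.88 in the tenth of genes with the lowest GC content to 0.35 in the tenth with the highest, and nearly the same run was seen without acetate, from -0.76 to 0.21. When length and GC trends were removed by splines, 5183 genes were called, and 3643 of them were calls of the uncorrected fit in the same direction. The part of GC content in single gene results was not tested, and lists whose counts moved by more than 1.5 times after the removal are given with both counts.

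**Figure D2:**
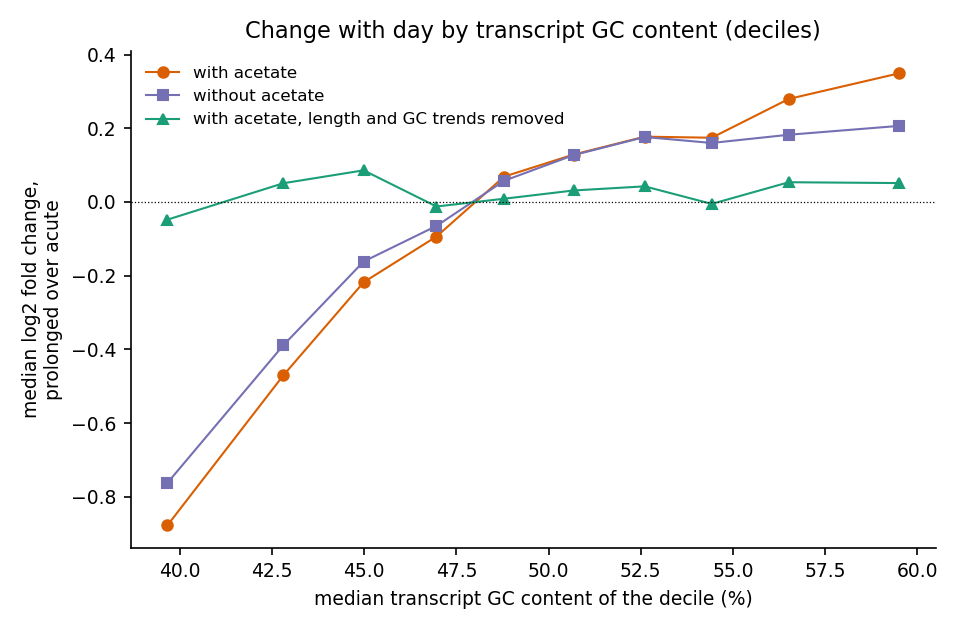
Median log2 fold change of prolonged over acute restriction (y axis) in 10 equal groups of genes ordered by transcript GC content (x axis, percent), with acetate, without acetate, and with acetate after length and GC trends were removed. The uncorrected lines rise from left to right and the corrected line stays near 0.

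Genes of cell division fell as a group in prolonged cells. Of 34 G2/M and mitosis genes, all tested, 33 fell (97.1%, against 23.1% of all genes tested) and none rose, with a median log2 fold change of -2.20. In bulk RNA, fewer cells of a type and less RNA per cell cannot be told apart, so these values do not separate fewer dividing cells from less message per cell. Mki67 (ENSMUSG00000031004, chr7:135689784-135716361 in GRCm38, minus strand), which encodes the proliferation marker Ki-67, stood at 159 and 95.1 CPM in the acute libraries and at 13.2, 18.5 and 14.5 CPM in the prolonged ones. All 3 prolonged libraries lay below both acute ones, and its log2 fold change was -3.04 ± 0.28 (SE; edgeR adjusted p = 3.40e-05). Kif11 (ENSMUSG00000012443, chr19:37376403-37421859 in GRCm38, plus strand), the motor that separates spindle poles, went from 142 and 88.3 CPM to 10.4, 12.3 and 10.6 CPM (log2 fold change -3.37 ± 0.23). Nusap1, a spindle-associated protein gene, had the lowest log2 fold change among protein-coding genes with a mean log2 CPM of at least 3, at -4.04 ± 0.17, with 70.2 and 59.2 CPM in acute and 3.2, 4.21 and 4.39 CPM in prolonged libraries; Oip5 overlaps it on the other strand. Other genes among the 12 with the lowest log2 fold changes were the kinetochore genes Cenpe (-3.73 ± 0.23), Nuf2 (-3.26 ± 0.20) and Bub1 (-3.18 ± 0.30), the abscission gene Cep55 (-2.98 ± 0.22), the condensin gene Ncapg2 (-2.95 ± 0.23) and Hmmr (-3.49 ± 0.16), which encodes a hyaluronan receptor that also binds the spindle. For each of these 6 genes no prolonged library reached the lower acute library. Removal of length and GC trends gave log2 fold changes of -3.40 for Nusap1, -2.61 for Nuf2, -2.46 for Bub1 and -2.86 for Hmmr. Nrgn, which encodes neurogranin, a calmodulin-binding protein best known from neurons, was also among the 12, at 59.4 and 38.3 CPM in acute and 3.5, 2.38 and 3.62 CPM in prolonged libraries.

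DNA replication genes fell too, by less. Of 37 S phase genes, all tested, 33 fell (89.2%) and none rose, and the median log2 fold change was -1.14. Pola1, the catalytic subunit of DNA polymerase alpha, was at 36.9 and 15.6 CPM in acute and at 3.2, 3.48 and 3.33 CPM in prolonged libraries (log2 fold change -2.97 ± 0.31). The acute libraries of this gene differed from each other, and without acute replicate 1 its log2 fold change was -2.23; with length and GC trends removed it was -2.32. Rrm2, the regulated subunit of ribonucleotide reductase, went from 156 and 131 CPM to 26.4, 25.1 and 35.1 CPM (-2.31 ± 0.30). E2f2, a transcription factor that drives entry into S phase, went from 46 and 38.3 CPM to 7.04, 6.41 and 9.42 CPM (-2.46 ± 0.25), and the cyclin gene Ccne2 from 14.7 and 12.6 CPM to 0.885, 1.1 and 1.58 CPM (-3.51 ± 0.27, and -2.50 with length and GC trends removed). Pclaf, a replication clamp-associated factor and one of the 12 lowest genes, had a log2 fold change of -2.96 ± 0.14. With length and GC trends removed, 32 of the G2/M genes and 34 of the S phase genes fell, and none rose in either list.

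Chromatin and brake genes of the cell cycle moved in both directions. Of 25 tested members of a list of 26 linker histone and chromatin genes, 15 fell (60%) and 2 rose (8%), against 23.1% and 18.5% of all genes tested, and without acute replicate 1 only 8 fell. Smc2 and Smc4, the 2 ATPase subunits of condensin, had log2 fold changes of -3.41 ± 0.26 (-2.78 without acute replicate 1) and -2.25 ± 0.19. Hmgb2, a DNA-bending protein abundant in dividing cells, went from 433 and 443 CPM to 89.2, 126 and 114 CPM (-2.00 ± 0.16), and Cbx3, a heterochromatin protein, from 37 and 28.5 CPM to 7.33, 6.6 and 7.93 CPM (-2.17 ± 0.15). Their log2 fold changes with length and GC trends removed were -2.61 for Smc2, -1.48 for Smc4, -1.12 for Hmgb2 and -1.29 for Cbx3. Among 14 tested cyclin-dependent kinase inhibitors, pocket proteins and D cyclins of 15 listed, 7 rose (50%) and 2 fell (14.3%), and without acute replicate 1 3 rose. Cdkn1a, which encodes the inhibitor p21, was at 554 and 583 CPM in acute and 1458, 1539.8 and 1772 CPM in prolonged libraries (log2 fold change 1.48 ± 0.14; edgeR adjusted p = 3.83e-05). Cdkn2a went from 21.6 and 11.8 CPM to 99.1, 134 and 114 CPM (2.79 ± 0.25), and its neighbour Cdkn2b from 14 and 6.15 CPM to 63.2, 59.3 and 53.9 CPM (2.55 ± 0.34, and 3.25 without acute replicate 1). The groups did not overlap for any of these 3 inhibitors. The pocket protein gene Rbl1, a member of the retinoblastoma family, fell (-1.60 ± 0.17), and Ccnd1, a D cyclin, rose (1.60 ± 0.38) but did not pass without acute replicate 1 (edgeR adjusted p = 0.0547).

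Promoters of the genes that fell together are shown for the letters they share. Windows from 250 bases before to 50 bases after the start site were taken from RefSeq (GRCm38.p6) and matched by symbol for 9071 of 11441 protein-coding genes tested. The word TTTGAA, the cell cycle gene homology region bound by the DREAM complex, occurred on either strand in 20 of 28 G2/M promoters (71.4%), against 11.6% of all 9071, 17% of genes called lower and 9.19% of genes called higher. The word CCAAT occurred in 22 of the 28 (78.6%), against 39.2% of all, 41.9% of genes called lower and 35.3% of genes called higher. It also occurred in 13 of 18 promoters of the MHC class I list (72.2%), a list in which most genes rose. An E2F-type word (TTTCCCGC, TTTGGCGC, TTTCGCGC or TTTGCCGC) occurred in 10 of 30 S phase promoters (33.3%), against 4.33% of all, 6.54% of genes called lower and 2.68% of genes called higher. A match is a description of letters and no evidence that a factor binds. The 250 bases before the start site follow for Kif11 (chr19:37376132-37376381, plus strand), Mki67 (chr7:135716380-135716629, minus strand) and Pola1 (chrX:93632156-93632405, minus strand), 5′ to 3′ on the gene's strand, with TTTGAA or its reverse complement in capitals in the first 2 and the E2F-type word, here as its reverse complement, in capitals in Pola1.
Kif11: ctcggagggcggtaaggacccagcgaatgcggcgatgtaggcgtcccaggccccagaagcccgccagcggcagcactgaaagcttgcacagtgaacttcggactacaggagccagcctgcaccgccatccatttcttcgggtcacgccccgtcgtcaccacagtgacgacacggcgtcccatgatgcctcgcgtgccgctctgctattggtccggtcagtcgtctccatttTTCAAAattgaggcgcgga
Mki67: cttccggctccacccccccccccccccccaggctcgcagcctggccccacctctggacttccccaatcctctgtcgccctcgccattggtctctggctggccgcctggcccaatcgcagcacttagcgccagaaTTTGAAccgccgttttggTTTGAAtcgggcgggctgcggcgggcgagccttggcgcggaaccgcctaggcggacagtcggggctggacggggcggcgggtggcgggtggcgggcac
Pola1: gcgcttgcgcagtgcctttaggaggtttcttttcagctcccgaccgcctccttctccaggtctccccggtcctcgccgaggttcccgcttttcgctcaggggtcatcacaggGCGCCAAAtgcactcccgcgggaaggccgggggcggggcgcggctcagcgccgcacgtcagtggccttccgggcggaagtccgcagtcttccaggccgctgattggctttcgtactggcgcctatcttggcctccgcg
Mki67 holds its pair of matches 116 and 98 bases before the start site, Kif11 a single match at 19 bases and Pola1 a single match at 138 bases, counted from the first base of the match.

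Granzyme and granule genes rose or did not pass the test. Of 23 granzyme and granule genes, all tested, 14 rose (60.9%, against 18.5% of all genes tested) and none fell, with a median log2 fold change of 0.67. Gzmb (ENSMUSG00000015437, chr14:56258838-56262260 in GRCm38, minus strand), the main apoptosis-inducing granzyme, was at 3259 and 3842 CPM in acute and at 9314, 11761 and 10768 CPM in prolonged libraries. The groups did not overlap, and the log2 fold change was 1.58 ± 0.19 (edgeR adjusted p = 0.000151). Gzma, a trypsin-like granzyme, went from 262 and 117 CPM to 2244, 2834 and 2216 CPM. Its acute libraries differed from each other by more than 2-fold, and its log2 fold change was 3.68 ± 0.52, or 4.37 without acute replicate 1 and 4.46 with length and GC trends removed. Gzmc, which lies in the same cluster as Gzmb, changed least of the granzymes named, from 1013 and 1007 CPM to 1489, 1895 and 2049.8 CPM (0.84 ± 0.24), and did not pass without acute replicate 1 or 2 (edgeR adjusted p = 0.0876 and 0.0828). The clustered genes Gzmd, Gzme, Gzmf and Gzmg were low in acute cells and higher in all prolonged libraries. Gzmd went from 18.3 and 12.1 CPM to 613, 585 and 526 CPM (5.24 ± 0.55), Gzme from 7.34 and 5.94 CPM to 268, 249 and 211 CPM (5.19 ± 0.47), and Gzmf from 3.19 and 2.52 CPM to 107, 112 and 127 CPM (5.33 ± 0.34). Gzmg went from 14.4 and 6.21 CPM to 323, 258 and 269 CPM (4.78 ± 0.65, and 5.50 without acute replicate 1). These paralogs share sequence, so reads can be split between them: 21.5% of 50-base windows of Gzmd, 19.1% of Gzme, 15.2% of Gzmg and 7.36% of Gzmf occur in another granzyme transcript, against 0% for Gzma and Gzmb. Prf1, the pore-forming perforin, went from 329.8 and 246 CPM to 638, 623 and 598 CPM (1.11 ± 0.23; edgeR adjusted p = 0.00358).

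**Figure D3:**
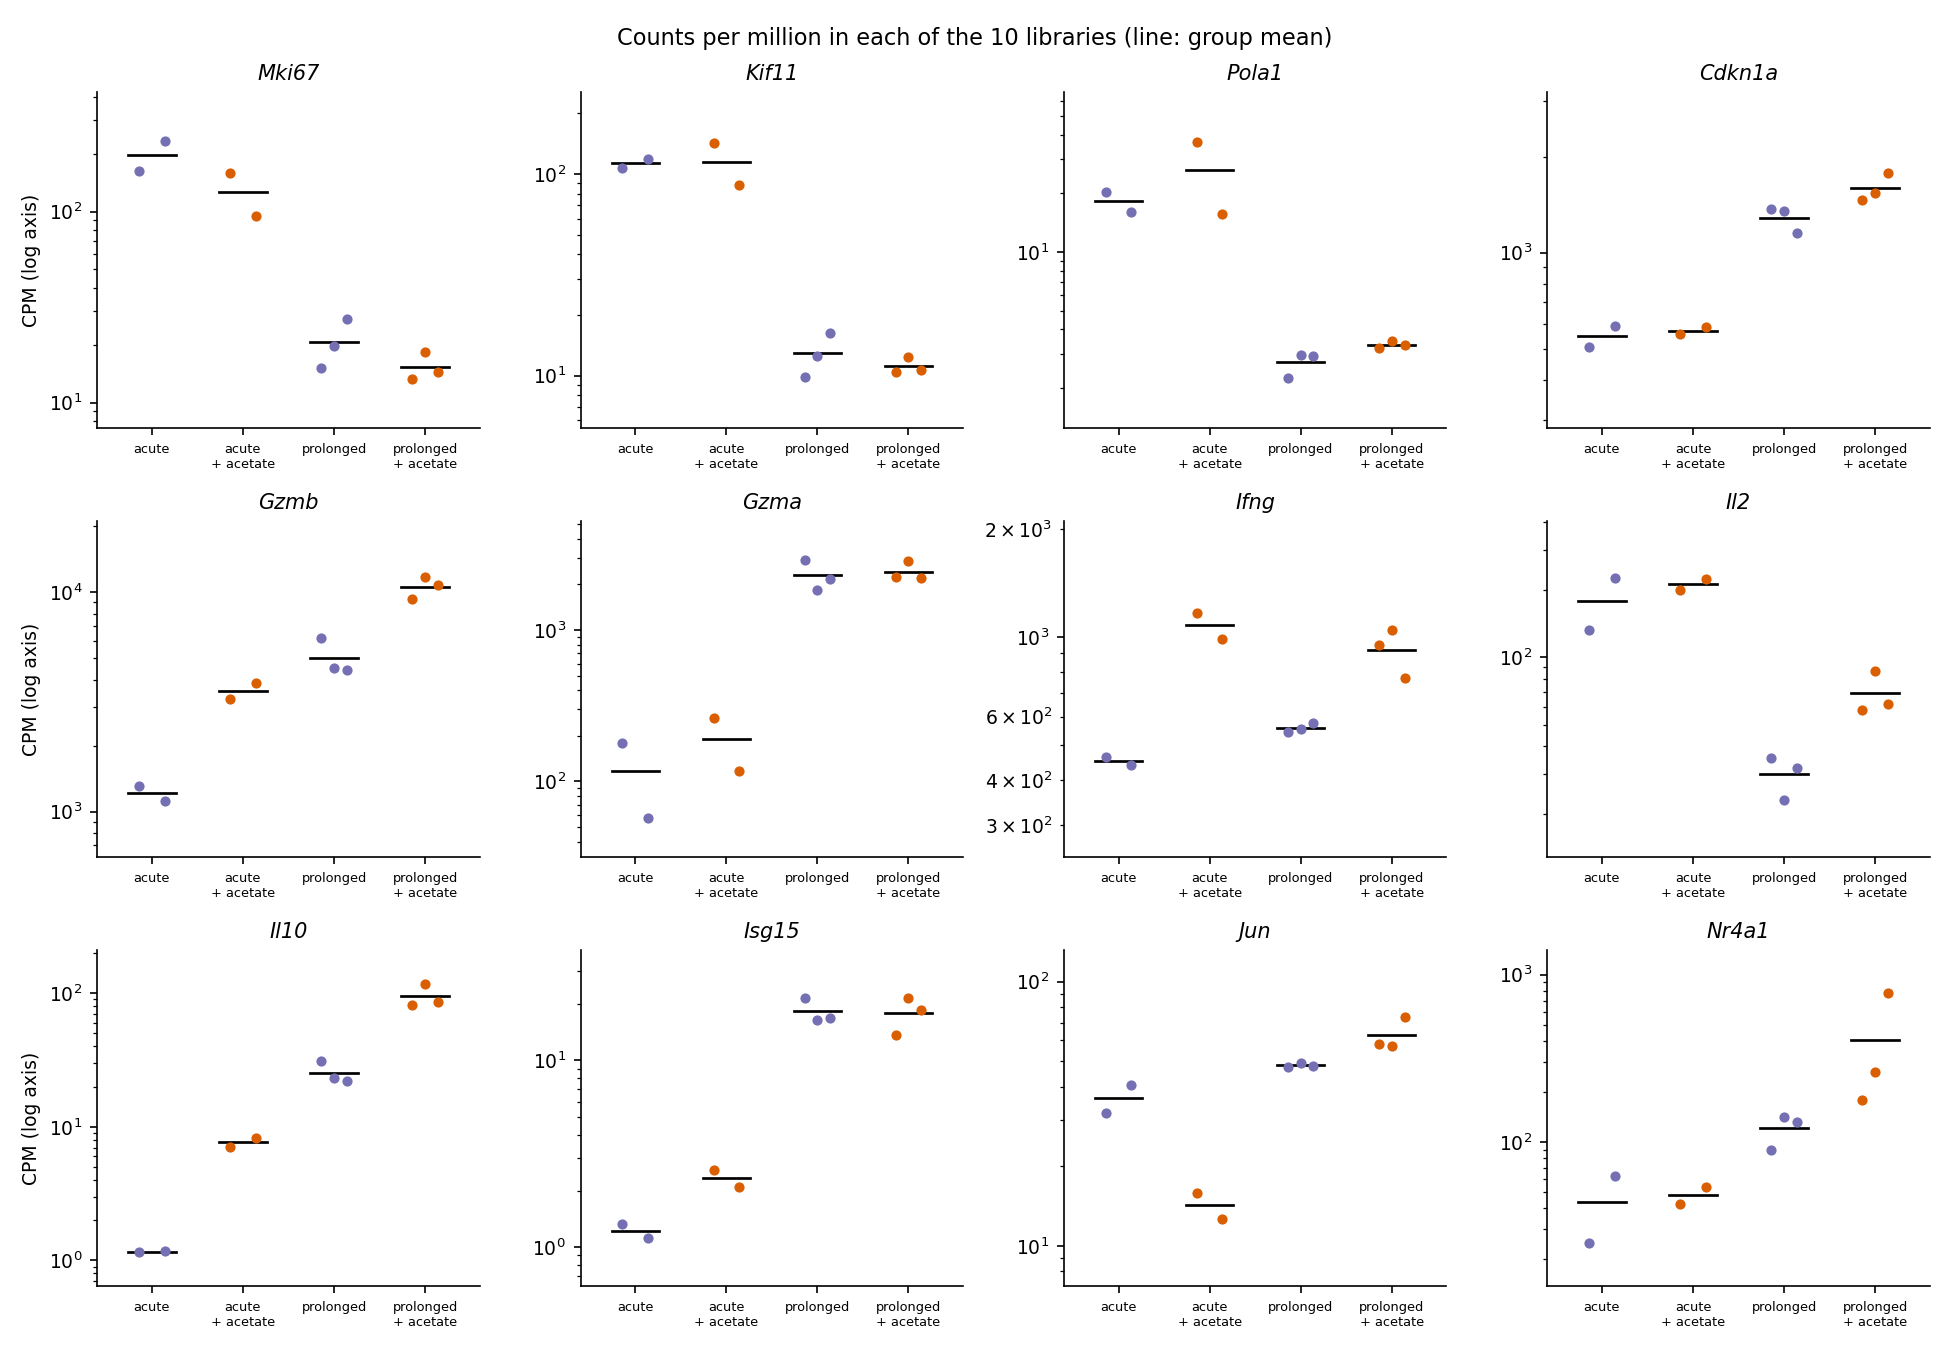
CPM of 12 genes (log axis) in each of the 10 libraries, by group; points are libraries (orange with acetate, purple without) and lines are group means. Mki67, Kif11 and Pola1 are lower and Gzmb, Gzma, Il10 and Isg15 higher in both prolonged groups, while Ifng overlaps between acute and prolonged cells with acetate.

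Cytokine genes did not move as a block. Of 22 tested members of 26 listed cytokines, 7 rose (31.8%) and 9 fell (40.9%), against 18.5% and 23.1% of all genes tested, with a median log2 fold change of -0.30. Without acute replicate 2, 4 rose, and 6 rose and 5 fell with length and GC trends removed. Il10 (ENSMUSG00000016529, chr1:131019845-131024974 in GRCm38, plus strand), an anti-inflammatory cytokine, was at 7.12 and 8.31 CPM in acute and at 82.2, 117 and 86.1 CPM in prolonged libraries (log2 fold change 3.62 ± 0.23; edgeR adjusted p = 3.87e-06). Every prolonged library lay far above both acute ones, and with length and GC trends removed the log2 fold change was 4.22. Il2 (ENSMUSG00000027720, chr3:37120523-37125959 in GRCm38, minus strand), the T cell growth factor, went the other way, from 199 and 224 CPM to 58, 86.9 and 61.9 CPM (-1.62 ± 0.25; edgeR adjusted p = 0.000579), with no overlap between groups. With length and GC trends removed, Il2 had a log2 fold change of -0.47 and did not pass (edgeR adjusted p = 0.139). Ifng, the signature cytokine of type 1 responses, was at 1169 and 987 CPM in acute and 951, 1046 and 768 CPM in prolonged libraries. These ranges overlap and the difference did not pass (-0.23 ± 0.14; edgeR adjusted p = 0.222), while with length and GC trends removed it was 0.54 (edgeR adjusted p = 0.00874). Without prolonged replicate 2 and, in the cells without acetate, prolonged replicate 1, its log2 fold change was -0.31 (edgeR adjusted p = 0.0493). Tnf rose from 413 and 339 CPM to 631, 785 and 580.4 CPM (0.82 ± 0.15; edgeR adjusted p = 0.00173). Csf2, which encodes GM-CSF, was at 439 and 396 CPM in acute and 306, 311 and 261 CPM in prolonged libraries (-0.51 ± 0.13), did not pass without acute replicate 1 (edgeR adjusted p = 0.083) and had a log2 fold change of 0.27 with length and GC trends removed. Lif, an interleukin-6 family cytokine, rose from 10.6 and 25.7 CPM to 103, 111 and 113 CPM (2.58 ± 0.45, and 3.36 without acute replicate 2). The death ligand gene Tnfsf10, or TRAIL, fell from 62.6 and 55.7 CPM to 9.82, 7.37 and 6.4 CPM (-2.91 ± 0.22). The macrophage growth factor Csf1 fell from 92.7 and 37.4 CPM to 14.5, 10.9 and 17 CPM (-2.20 ± 0.39, and -1.41 without acute replicate 1).

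Among 9 tested chemokines of 12 listed, 2 rose (22.2%) and 2 fell (22.2%), shares near the 18.5% and 23.1% of all genes tested. The number that rose was 4 with length and GC trends removed. Xcl1, which attracts cross-presenting dendritic cells, fell from 3175 and 2721 CPM to 679, 998 and 646 CPM (-1.93 ± 0.21, and -1.21 with length and GC trends removed; edgeR adjusted p = 8.79e-05). Ccl5 was at 261 and 195 CPM in acute and 545, 406 and 563 CPM in prolonged libraries (1.15 ± 0.26) and did not pass without acute replicate 2 (edgeR adjusted p = 0.0598). Cxcl16, the ligand of Cxcr6, rose from 3.53 and 5.1 CPM to 10.6, 12.2 and 9.98 CPM (1.34 ± 0.27). The other gene that fell, Ccl22, had no count in any prolonged library and 25 counts over the acute ones, at least 15.6-fold lower against a floor of 3 counts over the prolonged group. Of 22 tested chemokine receptor, integrin and homing genes of 28 listed, 7 rose (31.8%) and 4 fell (18.2%). The number that rose was 11 without prolonged replicate 1 of the cells without acetate, and 2 fell without acute replicate 2 and with length and GC trends removed. Itga1, a collagen-binding integrin subunit of resident T cells, rose from 0.673 and 0.368 CPM to 10.0, 5.45 and 7.33 CPM (3.87 ± 0.38). Cxcr3, a receptor of interferon-induced chemokines, fell from 11.4 and 7.63 CPM to 2.19, 2.06 and 2.86 CPM (-2.00 ± 0.23). Klf2, a factor that promotes lymph node homing, rose at low levels, from 1.01 and 0.736 CPM to 2.82, 2.2 and 2.73 CPM (1.57 ± 0.34).

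Most tested interferon-stimulated genes rose in prolonged cells. Of 35 listed, 28 were tested, of which 23 rose (82.1%) and 2 fell (7.14%), against 18.5% and 23.1% of all genes tested, with a median log2 fold change of 1.12. That median is unchanged when Rsad2, which had no count in either acute library, is set to its lower bound of 5.88-fold against 3 counts over the group. Isg15 (ENSMUSG00000035692, chr4:156199424-156200818 in GRCm38, minus strand), a ubiquitin-like modifier, was at 2.58 and 2.1 CPM in acute and at 13.7, 21.5 and 18.6 CPM in prolonged libraries, with no overlap (log2 fold change 2.94 ± 0.25; edgeR adjusted p = 2.12e-05). Mx1, a dynamin-like antiviral GTPase, rose from 8.24 and 8.05 CPM to 55.6, 46 and 38.4 CPM (2.52 ± 0.19), and Irf7, which amplifies type I interferon responses, from 0.841 and 1.63 CPM to 4.34, 5.45 and 6.01 CPM (2.08 ± 0.29). Ly6c2, an interferon-responsive surface protein of effector and memory CD8 cells, rose from 43.5 and 61.4 CPM to 425, 440.5 and 326 CPM (2.92 ± 0.28). The element GAAA, then any 2 bases, then GAAA, the core of the interferon-stimulated response element, occurred on either strand in 13 of 21 promoters of this list (61.9%), in 5 of 18 promoters of the MHC class I list (27.8%) and in 3.1% of all 9071. The Isg15 promoter is shown because it holds several matches, as the 250 bases before the start site (chr4:156200819-156201068 in GRCm38.p6, minus strand, 5′ to 3′), with 3 overlapping matches in capitals that begin 78, 72 and 66 bases before the start.
Isg15: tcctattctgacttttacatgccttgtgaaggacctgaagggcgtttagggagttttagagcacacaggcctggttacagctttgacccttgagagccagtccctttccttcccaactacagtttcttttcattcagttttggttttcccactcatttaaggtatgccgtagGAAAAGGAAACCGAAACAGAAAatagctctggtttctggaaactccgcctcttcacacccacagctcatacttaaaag

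Most genes of the MHC class I list rose too. Of 20 presentation genes, all tested, 14 rose (70%) and 2 fell (10%), against 18.5% and 23.1% of all genes tested, with a median log2 fold change of 0.63. H2-Q7 went from 318 and 331 CPM to 758, 999 and 929.7 CPM (1.46 ± 0.14), H2-Q6 from 208 and 212 CPM to 479, 533 and 552 CPM (1.31 ± 0.12), and H2-Q4 from 167 and 154 CPM to 309.7, 350.4 and 354 CPM (1.08 ± 0.11). In each of the 3 genes every prolonged library lay above both acute ones. These genes are near-identical copies in one family, so how reads were divided among them is uncertain.

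Regulators of T cell state moved in both directions. Of 21 tested effector regulators of 22 listed, 11 rose (52.4%) and 5 fell (23.8%), against 18.5% and 23.1% of all genes tested; 2 fell without acute replicate 1. Irf8, an interferon regulatory factor, rose from 145 and 128 CPM to 667, 1083 and 1373 CPM (2.93 ± 0.27; edgeR adjusted p = 3.40e-05). Prdm1, which encodes Blimp-1, a transcriptional repressor of terminally differentiated effector cells, rose from 12.4 and 8.26 CPM to 48.1, 32.4 and 75.3 CPM (2.33 ± 0.33). Tbx21, which encodes T-bet, fell from 162 and 103 CPM to 64.4, 56.2 and 73.4 CPM (-1.03 ± 0.24) and did not pass without acute replicate 1 (edgeR adjusted p = 0.0988). The related factor Eomes rose from 3.98 and 3.79 CPM to 39.9, 29.5 and 32.9 CPM (3.13 ± 0.20; edgeR adjusted p = 4.00e-06), so the pair of T-box factors moved in opposite directions. Hic1, a transcriptional repressor, rose from 0.448 and 0.421 CPM to 5.77, 5.82 and 9.89 CPM (4.03 ± 0.40, and 3.43 with length and GC trends removed), and Klrg1, a receptor of short-lived effector cells, from 1.12 and 0.999 CPM to 6.24, 4.99 and 2.64 CPM (2.12 ± 0.48).

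Of 22 memory and naive genes, all tested, 9 rose (40.9%) and 6 fell (27.3%), against 18.5% and 23.1% of all genes tested, with a median log2 fold change of 0.38. Tcf7, which encodes TCF1, a factor of naive and memory cells, rose from 24.5 and 38.4 CPM to 141, 85.5 and 142 CPM (1.97 ± 0.40; edgeR adjusted p = 0.00331), and every prolonged library lay above both acute ones. Il7r, the interleukin-7 receptor that memory precursors keep, fell from 12.6 and 10.3 CPM to 2.78, 1.65 and 3.54 CPM (-2.10 ± 0.27, and -1.35 with length and GC trends removed). Slamf6, a SLAM receptor that marks progenitor cells, fell from 35.3 and 39 CPM to 1.98, 1.24 and 1.19 CPM (-4.65 ± 0.28). These 3 genes are often used together as marks of less differentiated cells, and here they did not move together.

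Of 20 tested inhibitory receptor and exhaustion genes of 21 listed, 5 rose (25%) and 6 fell (30%), not far from the 18.5% and 23.1% of all genes tested; 3 rose without acute replicate 2. Cd200 fell from 43.3 and 43.2 CPM to 2.28, 1.92 and 2.86 CPM (-4.19 ± 0.21), Btla from 26.6 and 24.8 CPM to 2.87, 2.43 and 1.88 CPM (-3.42 ± 0.27) and Tox, a regulator of exhaustion, from 12.7 and 9.94 CPM to 2.11, 1.05 and 1.66 CPM (-2.80 ± 0.26). Btla had a log2 fold change of -2.72 with length and GC trends removed. Pdcd1, which encodes PD-1, fell from 479.7 and 324 CPM to 178, 219 and 239 CPM (-0.92 ± 0.20) and did not pass without acute replicate 1 (edgeR adjusted p = 0.0721). Havcr2, which encodes TIM-3, was at 102 and 78.1 CPM in acute and 149, 121 and 105 CPM in prolonged libraries (0.47 ± 0.17; edgeR adjusted p = 0.0478), and did not pass without acute replicate 2 (0.29), prolonged replicate 1 (0.32) or any of 4 libraries without acetate. Of 17 costimulatory receptors, 6 rose (35.3%) and 7 fell (41.2%), with 3 higher without acute replicate 1. The TNF receptor family members Tnfrsf1b and Tnfrsf8 rose (1.70 ± 0.21 and 1.64 ± 0.30), while the adhesion receptor Cd226 and the SLAM receptor Cd84 fell (-1.89 ± 0.29 and -1.58 ± 0.21, or -0.85 and -0.75 with length and GC trends removed). Of 12 tested NK-type receptors of 18 listed, 3 rose (25%) and 5 fell (41.7%), and 5 rose and 2 fell with length and GC trends removed. Klrb1c, which encodes NK1.1, rose from 5.16 and 5.79 CPM to 18.7, 25.9 and 18.2 CPM (1.93 ± 0.24), and Klrc1, the inhibitory receptor NKG2A, fell from 77 and 83.6 CPM to 18.4, 24.2 and 17 CPM (-2.01 ± 0.25, and -0.95 with length and GC trends removed).

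Markers of other cell types were examined beside these results. Calls in these lists stand against the 18.5% of all genes tested that rose and the 23.1% that fell, and the lists had few tested members. Of 6 tested NK markers of 8 listed, Gzma, Eomes, Klrb1c and Fcer1g rose and none fell; their summed level was 283 and 136 CPM in acute and 2338, 2913 and 2288 CPM in prolonged libraries, nearly all of it Gzma. The NK receptor genes Ncr1 and Klra8 were not tested and held at most 5 counts in a library with acetate. B cell markers summed to 200.02 and 209.7 CPM in acute and 85.6, 119 and 117 CPM in prolonged libraries, nearly all of it Ighm (196 and 203 CPM against 84.8, 118 and 116 CPM; -0.91 ± 0.16), and Cd79b, Ighm and Ighd, the 3 tested members of 11 listed, fell. Monocyte and macrophage markers summed to at most 6.95 CPM in a library with acetate, granulocyte markers to at most 1.81 CPM and erythroid markers to at most 0.28 CPM, with C1qa, S100a8, S100a9, Elane and Mpo at 0 in all 10 libraries. Of these lists, Ly6g alone passed, from no count in acute libraries to 26 counts over the prolonged ones (at least 4.63-fold higher against 3 counts over the group), and not without acute replicate 1 or 2 or prolonged replicate 1 (edgeR adjusted p = 0.0997, 0.103 and 0.0638). Dendritic cell markers summed to 40.7 and 48.2 CPM in acute and 90.03, 118 and 122 CPM in prolonged libraries mainly through Zbtb46 (1.54 ± 0.19) and the class II gene H2-Ab1 (1.07 ± 0.36; edgeR adjusted p = 0.244 without acute replicate 1, 0.0789 without prolonged replicate 2 and 0.0603 without prolonged replicate 3), while Clec9a, Siglech and Cd209a were at 0. Of the plasma cell list Derl3 fell (-2.72 ± 0.28), of the CD4 list Ikzf2 fell (-0.93 ± 0.31, lost without either acute library or prolonged replicate 1 or 2, by the DESeq2 Wald test and, at -0.25, with length and GC trends removed), of the gamma-delta list 1 member rose and 2 fell, and of the stroma and endothelium list Pecam1 rose (0.97 ± 0.22; edgeR adjusted p = 0.0595 without acute replicate 1). Of the 8 CD8 T cell markers, Cd8b1 rose (0.41 ± 0.12; edgeR adjusted p = 0.149 and 0.0545 without acute replicates 1 and 2) and none fell. The part of other cell types in the results above was not tested.

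Cytokine receptor signalling genes rose more often than they fell. Of 29 interleukin receptor, STAT and SOCS genes, all tested, 18 rose (62.1%) and 4 fell (13.8%), against 18.5% and 23.1% of all genes tested, with a median log2 fold change of 0.72. Il10ra, the ligand-binding chain of the interleukin-10 receptor, rose from 8.41 and 11.7 CPM to 42.5, 71.8 and 84.1 CPM (2.72 ± 0.29; edgeR adjusted p = 7.85e-05), so receptor and ligand of interleukin-10 both rose. Cish, a feedback inhibitor of STAT5 signalling, rose from 83.8 and 77.1 CPM to 249.7, 258 and 387 CPM (1.89 ± 0.20), and Il12rb1, a subunit of the receptors of interleukin-12 and interleukin-23, from 147 and 120.4 CPM to 425, 422 and 527 CPM (1.77 ± 0.23). Of 27 genes of the T cell receptor complex and its signalling, 7 rose (25.9%) and 3 fell (11.1%), but 3, 2, 12 and 11 rose without acute replicate 1, acute replicate 2, prolonged replicate 2 and prolonged replicate 1 without acetate. Ptprc, which encodes CD45, fell from 878 and 664 CPM to 423, 284 and 334 CPM (-1.15 ± 0.18, and -0.39 with length and GC trends removed).

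TGF-beta pathway genes rose more often than they fell. Acvrl1 (ENSMUSG00000000530, chr15:101128522-101145336 in GRCm38, plus strand), which encodes the type I receptor ALK1 of the TGF-beta family, had the highest log2 fold change among protein-coding genes with a mean log2 CPM of at least 3. It went from 0.785 and 1.89 CPM to 87.6, 69.5 and 94.3 CPM (5.95 ± 0.37; edgeR adjusted p = 3.87e-06), or 6.73 without acute replicate 2; Gm16031 overlaps it on the other strand. Of 17 tested members of 20 listed in the pathway, 9 rose (52.9%) and 1 fell (5.88%), against 18.5% and 23.1% of all genes tested, with a median log2 fold change of 0.71. Smad3, the signal transducer of TGF-beta receptors, rose from 8.41 and 7.78 CPM to 37.5, 35.7 and 52.7 CPM (2.37 ± 0.22), and Tgfbr2, the type II receptor, from 103 and 102 CPM to 370.2, 295 and 454 CPM (1.86 ± 0.18). Tgfbr1, its type I partner, fell from 12.8 and 8.89 CPM to 4.68, 2.98 and 2.47 CPM (-1.68 ± 0.27, and -1.04 with length and GC trends removed), so the chains of the receptor moved in opposite directions. Cdh1, which encodes E-cadherin, a TGF-beta responsive adhesion molecule in resident CD8 cells, rose from 2.07 and 2.21 CPM to 33.4, 26.5 and 36.8 CPM (3.91 ± 0.21). Other genes among the 12 with the highest log2 fold changes were Ppp2r2c, a regulatory subunit of protein phosphatase 2A, from 0.617 and 0.842 CPM to 53.5, 34.6 and 44.4 CPM (5.91 ± 0.28), Car2, a carbonic anhydrase, from 9.14 and 7.63 CPM to 132, 136 and 117 CPM (3.94 ± 0.18), and Epas1, which encodes HIF-2 alpha, from 2.58 and 1.53 CPM to 36.9, 19.2 and 30.7 CPM (3.82 ± 0.35). Serpina3f, a serine protease inhibitor of a family of close copies, went from 15.7 and 9.05 CPM to 81.5, 138 and 164 CPM (3.37 ± 0.36). For none of these genes did the groups overlap.

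Immediate early genes, which are transcribed within minutes to hours of stimulation, rose more often than they fell in prolonged cells with acetate. Of 37, all tested, 19 rose (51.4%) and 2 fell (5.41%), against 18.5% and 23.1% of all genes tested, with a median log2 fold change of 0.83; 12 rose without acute replicate 1. Summed over the list, CPM was 6252 and 5751 in acute libraries and 8662, 8489 and 13367 in prolonged ones, so prolonged replicate 3 stood highest. Jun, a subunit of the AP-1 factor, went from 15.9 and 12.7 CPM to 57.9, 57.3 and 73.2 CPM (2.14 ± 0.17; edgeR adjusted p = 1.47e-05). Nr4a1, an orphan nuclear receptor induced by receptor signalling, went from 42.8 and 53.5 CPM to 179, 263 and 781 CPM. Prolonged replicate 3 was far above the other 2 prolonged libraries, and the log2 fold change was 3.08 ± 0.63 with it and 2.20 without it. The same library was also highest for Fosb, an AP-1 subunit, at 1.35 and 1.16 CPM in acute and 3.08, 4.08 and 12.2 CPM in prolonged libraries (2.37 ± 0.61, 1.51 without prolonged replicate 3, and not past the threshold without acute replicate 1 or 2, with edgeR adjusted p = 0.0718 and 0.0824). Gadd45b, a stress-induced activator of MAP kinases, rose from 35.9 and 37.1 CPM to 193, 311 and 341 CPM (2.95 ± 0.22), and Dusp5, a phosphatase that ends ERK signalling, from 109.9 and 133 CPM to 592, 568 and 869.8 CPM (2.48 ± 0.24). Myc rose from 155 and 160.4 CPM to 442, 298 and 592 CPM (1.49 ± 0.37) and did not pass without acute replicate 1 or 2 (edgeR adjusted p = 0.0705 and 0.0573).

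**Figure D4:**
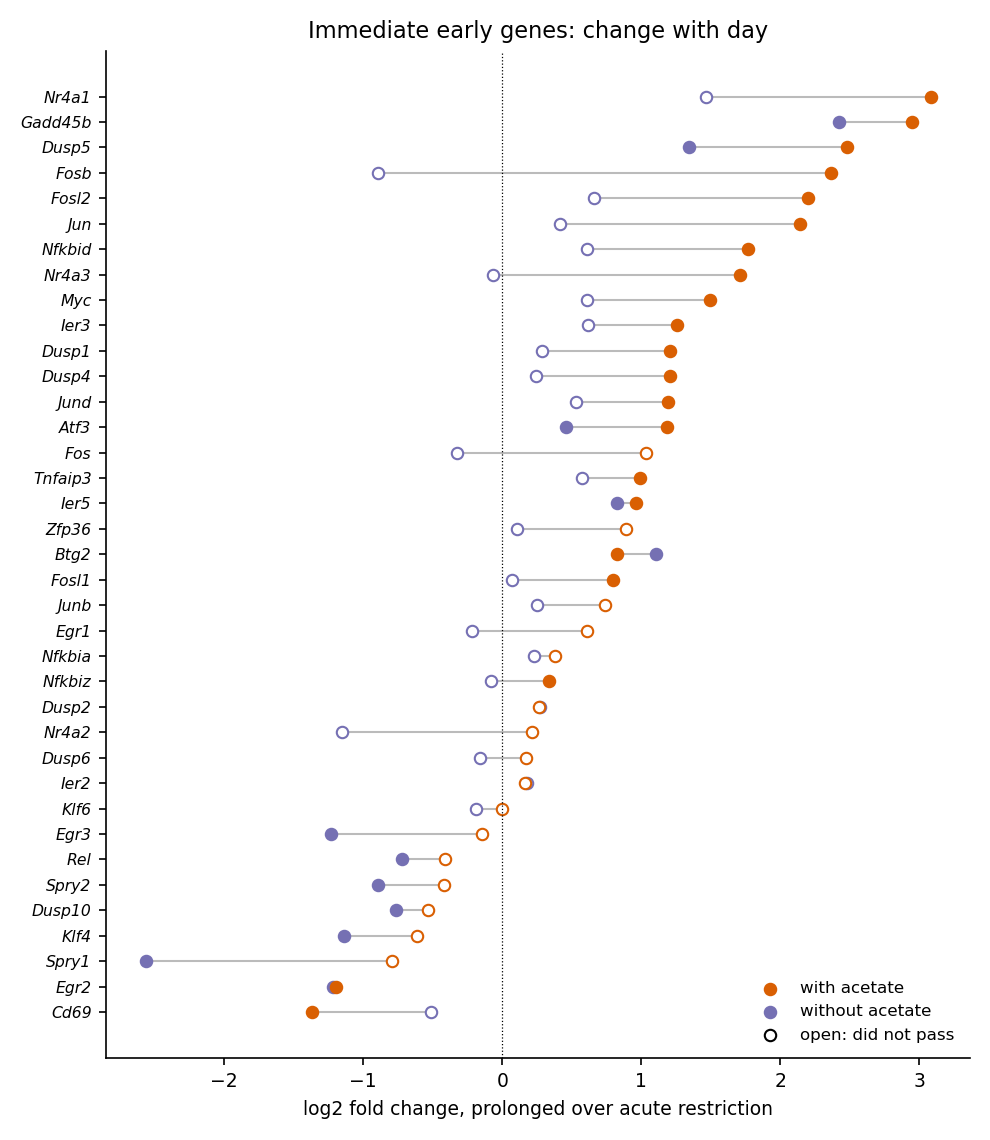
Log2 fold change of prolonged over acute restriction for 37 immediate early genes with acetate (orange) and without acetate (purple); filled points passed edgeR's adjusted p of 0.05 and grey lines join the same gene. The orange point lies to the right of the purple one for 33 of the 37 genes.

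Without acetate, where 15.9% of all genes tested rose and 21.2% fell, 5 of the 37 immediate early genes rose and 7 fell, with a median log2 fold change of 0.18. The difference between the changes with and without acetate was positive for 33 of 37 genes, while its median over all genes tested was -0.01. At an unadjusted p under 0.05, which 7.7% of all genes tested reached, it passed for 14, of which 13 were positive, and none passed the Benjamini-Hochberg adjustment in edgeR's fit of all 10 libraries. Under other settings 7 did. Jun passed in 4 of 21: edgeR with no filter beyond 1 count, with length and GC trends removed, and without the 2 prolonged libraries that lay apart, and the DESeq2 Wald test. Dusp4 and Dusp5 passed only with no filter beyond 1 count and Egr3 only without the 2 libraries. Fosb and Dusp1 passed only by DESeq2, and Spry1 by DESeq2 and without the 2 libraries; Dusp1, Dusp4, Egr3 and Spry1 were named after their values were seen. In the fit of all libraries Jun came closest: without acetate its log2 fold change was 0.42, and the difference of 1.72 ± 0.23 had an edgeR adjusted p of 0.0648. Jun stood at 15.9 and 12.7 CPM in acute cells with acetate and at 31.9 and 40.5 CPM in acute cells without it, against 57.9, 57.3 and 73.2 CPM and 47.6, 49.4 and 48.1 CPM in prolonged cells, so the groups without acetate lay closer together.

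Much of the change with prolonged restriction was also seen in cells that had no acetate. Without acetate 4895 of 13182 genes (37.1%) were called, 2096 higher and 2799 lower. Of the calls with acetate, 3682 were also called without it in the same direction, which is 67.2% of the calls with acetate and 75.2% of those without, and 11 were called in opposite directions. The 2 comparisons share no library but come from the same fit, and both ran with transcript GC content as given above. The part of that run in the overlap was not tested. The difference between the changes passed for 0 genes in edgeR (0% of those tested) and for 0 in limma-voom, against 1015 genes (7.7%) at an unadjusted p under 0.05 and 102 genes by the DESeq2 Wald test, 75 of them positive. When prolonged replicate 1 without acetate and prolonged replicate 2 with acetate were left out together, 164 genes passed in edgeR, 141 positive. The absence of calls therefore does not show that the changes were equal.

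**Figure D5:**
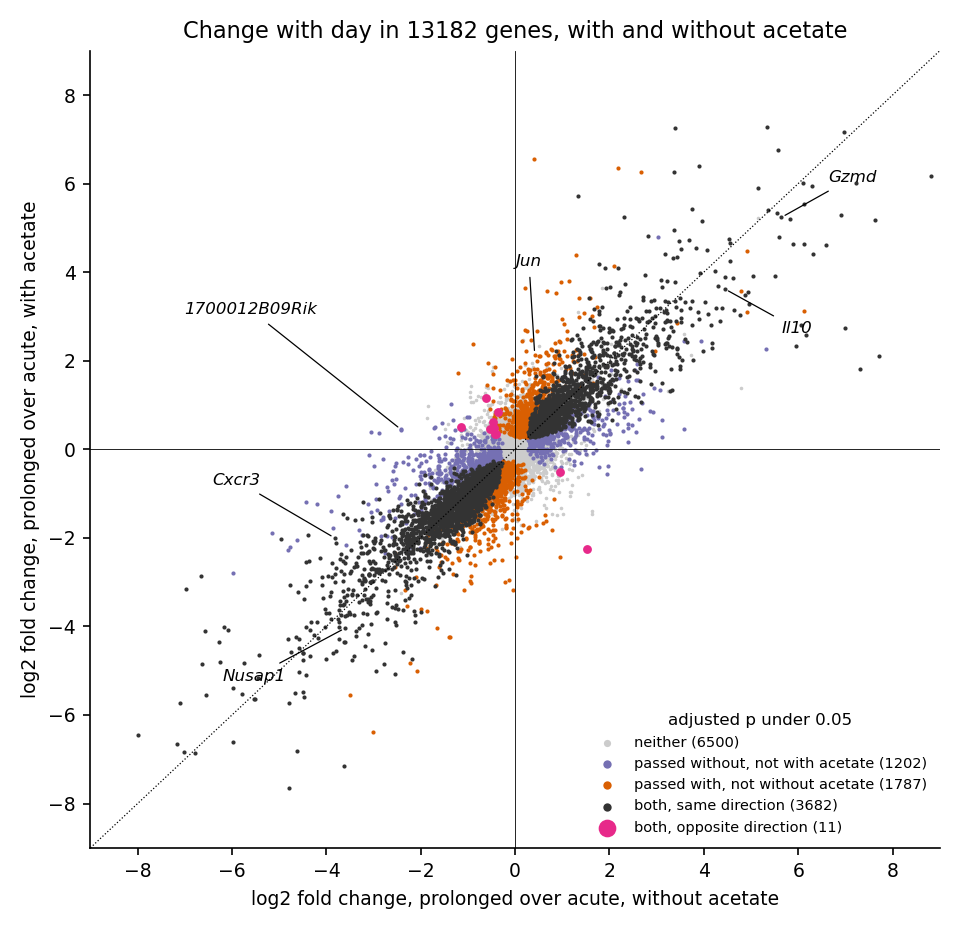
Log2 fold change of prolonged over acute restriction without acetate (x axis) against that with acetate (y axis) for the genes tested, coloured by which comparison passed edgeR's adjusted p of 0.05; the dotted line marks equal change and 2 genes lie outside the axes. The black points are the 3682 genes called in both comparisons in the same direction, so by definition both of their changes have the same sign.

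By the smallest p of the difference, positive genes were 1700012B09Rik, Jun and Tmem171, and negative genes were Mgll, Lrmp and Enpp1. None passed in edgeR's fit of all 10 libraries. All 6 passed in edgeR with no filter beyond 1 count, in edgeR without the 2 prolonged libraries that lay apart and by the DESeq2 Wald test. The positive genes and Lrmp also passed with length and GC trends removed, and none of the 6 passed under the remaining alternatives. The protein-coding gene 1700012B09Rik, whose role is little known, was at 1.51 and 2.42 CPM in acute and 2.28, 3.11 and 2.69 CPM in prolonged libraries with acetate, and at 9.38 and 6.6 CPM and 1.43, 1.44 and 1.61 CPM without (difference 2.86 ± 0.37; edgeR adjusted p = 0.0648). Mgll, a lipase that releases fatty acids from monoacylglycerol, rose in both settings, by a log2 fold change of 1.18 ± 0.16 with acetate and 2.61 without (difference -1.43 ± 0.22; edgeR adjusted p = 0.078). Memory and naive genes gave 9 higher and 6 lower with acetate and 4 higher and 9 lower without. The difference had an unadjusted p under 0.05, which 7.7% of all genes tested reached, for 8 of these 22 genes, each positive. For the unfolded protein response it did so for 10 of 24 genes, each negative. Other lists also exceeded that share, some in a single direction. Actin and SRF genes gave 8 of 31 and interleukin receptor, STAT and SOCS genes 4 of 29, each positive. MHC class I presentation genes gave 3 of 20, each negative. Further lists went in both directions. Cytokines gave 9 of 22 genes, 6 of them positive. Inhibitory receptor and exhaustion genes gave 7 of 20, with 4 positive, and T cell receptor complex and signalling genes 7 of 27, with 4 positive.

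Endoplasmic reticulum folding genes fell more often than they rose in prolonged cells with acetate. Of 24 genes of the unfolded protein response, all tested, 3 rose (12.5%) and 11 fell (45.8%), against 18.5% and 23.1% of all genes tested. Their median log2 fold change was -0.32, and 2 were higher and 5 lower without acetate. Their summed CPM was 15374 and 15593 in acute libraries with acetate and 12568.5 and 12511 in acute libraries without it. Prolonged libraries held 12212, 11744.5 and 11293 CPM with acetate and 12972, 12215 and 12540 CPM without. Hsp90b1, the chaperone GRP94, fell from 1099 and 1002 CPM to 362, 312 and 284 CPM (-1.72 ± 0.13, and -1.13 with length and GC trends removed; edgeR adjusted p = 8.91e-06), and the co-chaperone Dnajc3 from 184 and 145 CPM to 67.5, 60.9 and 49.9 CPM (-1.47 ± 0.16). Of the sensors that detect misfolded protein, Ern1 rose from 28.8 and 26.5 CPM to 101, 66.9 and 108 CPM (1.73 ± 0.22) and Eif2ak3 from 42.5 and 35 CPM to 118, 89.5 and 124 CPM (1.51 ± 0.16). Of 19 tested heat shock genes of 20 listed, 2 rose (10.5%) and 4 fell (21.1%), shares no larger than the 18.5% and 23.1% of all genes tested. None rose without acute replicate 1 or 2 or prolonged replicate 3. The cytosolic chaperone Hsp90aa1 fell from 296 and 200.5 CPM to 80.7, 80.1 and 56.1 CPM (-1.78 ± 0.20).

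Metabolic gene lists moved in both directions, and several of their counts depended on single libraries or on GC content. Of 23 glycolysis genes, 6 rose (26.1%) and 3 fell (13%), against 18.5% and 23.1% of all genes tested. However, 1 rose without acute replicate 1, 3 without acute replicate 2 and 14 without prolonged replicate 1, and 3 with length and GC trends removed. Hk2, the inducible hexokinase, was at 131 and 187 CPM in acute and 284, 278 and 493 CPM in prolonged libraries (1.14 ± 0.28) and did not pass without acute replicate 1 (edgeR adjusted p = 0.0946). Slc2a1, the glucose transporter GLUT1, was at 200.4 and 290.3 CPM in acute and 259.8, 478 and 639.7 CPM in prolonged libraries, overlapping ranges that did not pass (0.90 ± 0.38; edgeR adjusted p = 0.0786), and passed without prolonged replicate 1 (1.19; edgeR adjusted p = 0.0185). Aldoa, an aldolase, rose from 1595 and 1809 CPM to 2723, 3261 and 3556 CPM (0.90 ± 0.15). Txnip, a glucose-responsive brake on glucose uptake, was at 201 and 202 CPM in acute and 338, 240.3 and 126 CPM in prolonged libraries and did not pass (0.22 ± 0.31; edgeR adjusted p = 0.587). Of 14 tested glucose-sensing genes of 16 listed, 5 rose (35.7%) and none fell, with 2 and 3 higher without acute replicates 1 and 2. Ddit4, an inhibitor of mTORC1, rose from 220.2 and 317 CPM to 516, 719 and 986 CPM (1.46 ± 0.29). Of 10 pentose phosphate genes 1 rose (10%) and 2 fell (20%).

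Genes of acetate handling were called about as often as genes at large, and their count shows nothing particular to them. Of 16 tested genes of acetate and acetyl-CoA metabolism of 21 listed, 2 rose (12.5%) and 4 fell (25%), against 18.5% and 23.1% of all genes tested. Without prolonged replicate 2, 5 rose, and without acute replicate 2, 1 fell. Acss2 went from 4.54 and 4.79 CPM to 15.8, 15 and 13.9 CPM, with every prolonged library near 3 times the acute ones (1.67 ± 0.21; edgeR adjusted p = 0.000193); Acss2os, Ggt7 and Gss overlap it on the other strand. Acss1 was at 5.38 and 4.42 CPM in acute and 5.52, 5.54 and 5.07 CPM in prolonged libraries and did not pass (0.14 ± 0.20; edgeR adjusted p = 0.613). Acly, which makes acetyl-CoA from citrate, was at 328 and 353 CPM and 312, 313 and 317 CPM (-0.12 ± 0.10; edgeR adjusted p = 0.396), and passed with length and GC trends removed (-0.33; edgeR adjusted p = 0.0172). Without acetate Acss2 also rose (1.99). Of 30 tested histone acetylation genes of 31 listed, 4 rose (13.3%) and 5 fell (16.7%), below the 18.5% and 23.1% of all genes tested. Of these genes 1 rose without acute replicate 2, 9 rose without prolonged replicate 2, and 9 fell when length and GC trends were removed. The deacetylase Sirt1 fell from 23 and 17 CPM to 11.5, 7.69 and 7.38 CPM (-1.17 ± 0.21), and the acetyltransferase Hat1 from 87 and 87.5 CPM to 38.1, 47.1 and 36.3 CPM (-1.11 ± 0.13).

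Counts for mitochondrial and ribosomal lists moved with removal of GC trends. Of 13 mitochondrially encoded messenger RNAs 8 were tested, of which 5 fell (62.5%, against 23.1% of all genes tested) and none rose, with a median log2 fold change of -1.21 and a median GC content of 36.4%. Cytochrome b (mt-Cytb) was at 978 and 726 CPM in acute and 287, 335 and 279 CPM in prolonged libraries (-1.50 ± 0.17; edgeR adjusted p = 0.000113). With length and GC trends removed none of the 8 fell, and mt-Cytb had a log2 fold change of -0.31. The share of all counts on the mitochondrial genome was 1.12% and 1.10% in acute and 0.532%, 0.483% and 0.467% in prolonged libraries. The untested mt-Nd4l, mt-Co2, mt-Co3, mt-Atp6 and mt-Atp8 held at most 8 counts in a library with acetate. Nearly all of that share thus came from other mitochondrial genes, and the reason was not tested. Of 51 nuclear respiratory chain genes 3 rose (5.88%) and 4 fell (7.84%), 7 rose without prolonged replicate 1, 7 fell without prolonged replicate 2, and 28 rose and 2 fell with length and GC trends removed. Of 78 tested ribosomal protein genes of 80 listed, 3 rose (3.85%) and none fell, and 32 rose with length and GC trends removed. The ribosomal protein count was 0 without either acute library, and 3 rose and 12 fell when the 2 prolonged libraries that lay apart, one of them without acetate, were left out. Of 34 genes of the tricarboxylic acid cycle and glutaminolysis 6 rose (17.6%) and 6 fell (17.6%), near or below the 18.5% and 23.1% of all genes tested. The number that rose was 1 and 2 without acute replicates 1 and 2, and 3 without prolonged replicate 3. Of 23 tested fatty acid oxidation genes of 26 listed 4 rose (17.4%) and 2 fell (8.7%), with 2 rising and none falling without acute replicate 1 or without acute replicate 2, and 7 rising and 4 falling with length and GC trends removed. Cpt1a, its rate-limiting transferase, was at 33.2 and 27.9 CPM and 27.4, 19.9 and 23.8 CPM and did not pass (-0.36 ± 0.15; edgeR adjusted p = 0.0724). It did pass without prolonged replicate 1 (-0.48; edgeR adjusted p = 0.0271), with length and GC trends removed (-0.56; edgeR adjusted p = 0.00652) and with scaling by library size alone.

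Counts in the stress and survival lists stand against the 18.5% of all genes tested that rose and the 23.1% that fell. Of 22 tested hypoxia response genes of 23 listed, 7 rose (31.8%) and none fell, with a median log2 fold change of 0.86; 2 rose without acute replicate 1, 4 without prolonged replicate 3 and 12 without prolonged replicate 1. Ndrg1, a HIF target, rose from 254 and 276 CPM to 794, 971 and 1118 CPM (1.86 ± 0.16; edgeR adjusted p = 2.20e-05). Of 23 tested p53 targets of 24 listed 9 rose (39.1%) and 5 fell (21.7%), with 5 rising and 2 falling without acute replicate 1, and 2 falling with length and GC trends removed. Phlda3, a p53-induced inhibitor of AKT, rose from 5.1 and 6.05 CPM to 33, 29.3 and 26.3 CPM (2.40 ± 0.16). Of 24 tested BCL2 family and death genes of 26 listed 8 rose (33.3%) and 8 fell (33.3%), with 3 falling without acute replicate 1 or 2 and 4 without prolonged replicate 3, and 3 falling with length and GC trends removed. Bcl2l11, which encodes the killer protein BIM, rose from 90.2 and 67.1 CPM to 383, 262 and 438 CPM (2.20 ± 0.25). Of 32 tested ATF4 and amino acid supply genes of 33 listed 12 rose (37.5%) and 1 fell (3.12%), but 5 and 2 rose without acute replicates 1 and 2, and 6 with length and GC trends removed. The member that fell was Cth, which makes cysteine from cystathionine, from 81.6 and 100.1 CPM to 12.4, 18.4 and 11 CPM (-2.70 ± 0.20). Of 24 tested antioxidant and iron genes of 25 listed 6 rose (25%) and 4 fell (16.7%), near the shares of all genes, with 3 rising without acute replicate 2 and 2 falling with length and GC trends removed. Tfrc, the transferrin receptor that brings iron into dividing cells, fell from 697 and 426 CPM to 120.2, 102 and 118 CPM (-2.31 ± 0.18, and -1.52 with length and GC trends removed; edgeR adjusted p = 1.42e-05). Of 35 autophagy and lysosome genes 9 rose (25.7%) and 4 fell (11.4%). Sqstm1, the autophagy receptor p62, rose from 1201 and 1146 CPM to 3222, 2985 and 2701 CPM (1.34 ± 0.12), and Ctsd, the lysosomal protease cathepsin D, from 255 and 233 CPM to 682, 736 and 615 CPM (1.47 ± 0.19). Of 26 tested sterol synthesis genes of 27 listed 5 rose (19.2%) and 2 fell (7.69%; 2 and 3 rising without acute replicate 1 and prolonged replicate 1), and of 12 sterol efflux and LXR genes 6 rose (50%) and 1 fell (8.33%). Scd2, a fatty acid desaturase, rose from 332 and 389 CPM to 779, 803 and 1110 CPM (1.32 ± 0.17).

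Growth and shape genes closed the set of lists. Of 40 ribosome biogenesis and MYC-related genes 9 rose (22.5%) and 6 fell (15%), near the 18.5% and 23.1% of all genes tested. However, 0, 2 and 5 rose without acute replicate 1, acute replicate 2 and prolonged replicate 3, and 4 rose with length and GC trends removed. Npm1, a nucleolar chaperone of ribosome assembly, fell from 1086 and 995 CPM to 386, 431 and 316 CPM (-1.46 ± 0.19, and -0.74 with length and GC trends removed; edgeR adjusted p = 0.000193). Of 31 tested actin and SRF genes of 34 listed 11 rose (35.5%) and 6 fell (19.4%), with 6 and 7 rising without acute replicates 1 and 2 and 7 without prolonged replicate 3. Lmna, which encodes lamin A/C of the nuclear lamina, rose from 26.8 and 21.5 CPM to 98.2, 100.3 and 116 CPM (2.12 ± 0.23), and cytoplasmic actin Actg1 from 837 and 754 CPM to 1793, 1699.9 and 2128 CPM (1.24 ± 0.13). The whole list summed to 12905 and 12843 CPM in acute libraries with acetate and to 18610 and 17114 CPM in acute libraries without it. In prolonged libraries the sums were 17225, 17573.5 and 18160 CPM with acetate and 20309, 19834 and 20178.5 CPM without. Without acetate 4 genes of the actin and SRF list rose and 9 fell. The difference had an unadjusted p under 0.05 for 8 of 31 genes, each positive, a level that 7.7% of all genes tested reached. For neither Lmna nor Actg1 did the acute and prolonged libraries overlap.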

How the data were processed

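Gene counts were compared for CD8 T cells of 4 groups in 10 libraries. The authors deposited raw read counts per Ensembl gene for each library. The submitters' processing notes name STAR, featureCounts, deepTools, DESeq2 and build GRCm38 without roles, and neither the strand setting nor the annotation release is stated. Gene names, positions and transcript GC content came from GENCODE M21, which held 53360 of the 53465 gene identifiers, and promoter windows from RefSeq GRCm38.p6.

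Counts were analysed in R 4.3.3 with edgeR 4.0.16 (filterByExpr, TMM factors, robust quasi-likelihood fit over all 4 groups with 6 residual degrees of freedom, Benjamini-Hochberg threshold 0.05). The contrasts were prolonged over acute restriction with acetate, the same without acetate, and their difference. Errors after ± are standard errors of log2 fold changes. Depth was 17.5 to 24.7 M counts in the libraries with acetate. The fit was tested on simulated counts. Alternatives numbered 22 and included limma-voom 3.58.1, DESeq2 1.42.0, other scalings and filters, thinning, a replicate block, spline removal of length and GC trends (5 df) and leaving out each library.

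The comparison, its gene lists and the rule for named genes were chosen with earlier results of these data known. Named genes came from 4 sources: the extremes of the log2 fold change (12 in each direction, protein-coding, called, with non-overlapping groups and a mean log2 CPM of 3 or more), a set of effector, differentiation and metabolism genes always given, up to 4 passing members of each list by size of change with a mean log2 CPM of 1 or more, and the 3 genes of smallest p in each direction for the difference. Of these, those that best describe a group are given, and a few named genes are not reported here.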

Additional observations from a re-analysis of the deposited data

How the results depend on the processing

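Calls with acetate numbered between 4117 and 6681 under every alternative other than leaving out an acute library with acetate, against 5480. Leaving out single libraries gave 3106 to 6048 calls with acetate, 2829 to 5427 without acetate (6084 with both libraries that lay apart left out) and 0 to 1 for the difference. Replicate numbers were treated as shared numbers only: with 2 pairs, same-numbered acute and prolonged libraries with acetate had deviation correlations of 0.163 and 0.221. The deviations of 2 acute libraries from their mean are mirror images, so these 2 values are not separate. Same-numbered prolonged libraries with and without acetate gave -0.139, -0.392 and 0.329. With the replicate block 4556 genes were called, 4441 of them calls of the fit without it in the same direction. The difference passed for 99 genes with no filter beyond 1 count, 102 in the DESeq2 Wald test, 24 with length and GC trends removed and 164 without the 2 prolonged libraries that lay apart; the cause was not tested. Over 208 named genes and 22 settings, 4348 values kept direction and side of the threshold, 202 lost the call, 9 gained it and 12 changed sign. With length and GC trends removed the log2 fold change was 0.54 for Ifng, 0.27 for Csf2, -0.0517 for Acss1, 0.22 for Ndufa4, 0.0691 for mt-Nd1, 0.15 for mt-Nd4, -0.11 for Sdc1 and -0.11 for Lrmp. Lrmp was -0.017 with library size scaling. With single libraries left out Lrmp ranged from -0.0277 to 0.207, Txnip from -0.139 to 0.523 and Acss1 from -0.00059 to 0.276.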

Other observations

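Several further genes separated the groups widely and were picked after their values were seen, so no weight beyond their values attaches to them. Cd81, a tetraspanin that organises membrane receptors, was at 17.5 and 15.5 CPM in acute and 0.253, 0.458 and 0.213 CPM in prolonged libraries with acetate (log2 fold change -5.73; edgeR adjusted p = 8.41e-07). Gucy1a1, a subunit of the nitric oxide receptor guanylate cyclase, went from 30.5 and 21.7 CPM to 0.969, 0.504 and 0.0853 CPM (-5.63). Both genes were close to 0 in every prolonged library.

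Tgm2, a transglutaminase, went the other way, from 0.448 and 0.316 CPM to 12.1, 15.3 and 17.9 CPM (5.29). Klhl30, a member of the kelch family, went from 0.617 and 0.473 CPM to 14.1, 13.5 and 14.1 CPM (4.66). Entpd1, which encodes CD39, an enzyme that degrades extracellular ATP, went from 3.76 and 5.42 CPM to 22.4, 24.9 and 25.0 CPM (2.39; edgeR adjusted p = 1.12e-05). Ccr7, the receptor for lymph node homing, was at 67.0 and 112 CPM in acute and 118, 277 and 370 CPM in prolonged libraries, and prolonged replicate 1 was near the higher acute library (1.51; edgeR adjusted p = 0.0141).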
